A study of Mus musculus with 6 samples.

Results

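The TNF receptor superfamily on regulatory T cells was examined through 8 genes, Tnfrsf18, Tnfrsf4, Tnfrsf9, Tnfrsf8, Cd27, Tnfrsf1b, Tnfrsf1a and Tnfrsf25. They were taken by symbol from 47069 measured genes, and all 8 were present in both deposited tables and passed the filter on low values. RNA sequencing covered 6 libraries of mouse CD4+GFP+CD62Lhigh regulatory T cells from lymph node and spleen, activated with Dynabeads for 72 h or 48 h. At 72 h there were 2 libraries of Foxp3CreNoc4lfl/fl (cKO) cells and 2 of Foxp3CreNoc4l+/fl (Het) cells, and at 48 h 1 library of each. Both genotypes carried the Foxp3-driven Cre, so the Het cells had Cre and 1 floxed Noc4l allele too, and the Cre acts in cells that express Foxp3. The extraction protocol prints the Het allele for both genotypes, so the cKO genotype is taken from the sample labels. Replicate numbers were 2 and 4 for cKO and 1 and 3 for Het. One deposited table held replicates 1 and 2 at both times and the other held replicates 3 and 4 at 72 h. The labels do not say whether libraries came from separate animals, so the p-values speak only for these libraries. They come from limma, which draws each gene's spread towards a trend over all genes, so an SE or p-value does not measure 1 gene's own spread alone.

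Receptors of this family are bound by trimeric ligands, mostly on antigen-presenting cells, and recruit TRAF adaptor proteins that switch on NF-kappaB signalling. GITR (Tnfrsf18), OX40 (Tnfrsf4), 4-1BB (Tnfrsf9), CD30 (Tnfrsf8), CD27 (Cd27) and TNFR2 (Tnfrsf1b) act as costimulatory receptors on T cells. TNFR1 (Tnfrsf1a) and DR3 (Tnfrsf25) have a cytoplasmic death domain that binds the adaptor TRADD. Regulatory T cells of the mouse are known for high GITR, OX40 and TNFR2, and 4-1BB is induced on T cells by activation.

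The unit was FPKM, a fragment count divided by gene length and library size, so genes can be set side by side. Estimated depth was 16.5 M to 28.8 M (mega) fragments per library. The smallest estimated number of fragments behind a receptor's value was 397 (Tnfrsf1a in cKO 2 at 48 h) and the largest 17590 (Tnfrsf9 in cKO 2 at 72 h). Foxp3 was 173 and 336 FPKM in the 72 h libraries labelled cKO, 147 and 278 in the 72 h Het libraries, and 225 in cKO against 207 in Het at 48 h. Noc4l went against the labels, with 81.7 FPKM in cKO 2 against 48.8 in Het 1 and 58.1 in cKO 4 against 40.8 in Het 3 at 72 h, and 124 in cKO 2 against 99.1 in Het 1 at 48 h. Every direction below is therefore that of the libraries as labelled. Transcripts of other cells were uneven. The 6 neutrophil markers summed to 341 FPKM in cKO 2 and 75.3 in cKO 4 against 38.5 in Het 1 and 21.5 in Het 3 at 72 h, and to 390 in cKO 2 against 43.9 in Het 1 at 48 h. In cKO 4 they were all at 0 except Ltf. The 6 CD8 T and NK cell markers summed to 297 in cKO 2 and 119 in cKO 4 against 79.9 in Het 1 and 14.2 in Het 3 at 72 h, and to 42.0 in cKO 2 against 29.8 in Het 1 at 48 h. The 5 B cell markers summed to 83.5 in cKO 2 at 72 h and to between 8.18 and 22.6 in the other libraries. The 5 other myeloid markers summed to 40.3 and 45.8 in cKO 2 at 72 h and 48 h and to at most 3.26 elsewhere, and the 3 erythroid markers to between 0.716 and 21.4. In bulk RNA, fewer cells of a type and less RNA per cell cannot be told apart.

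The promoters of 5 receptors are shown because the genotype differences turned on these genes, Tnfrsf9, Tnfrsf4 and Tnfrsf1b, which stood higher in the library labelled cKO in every pair, Tnfrsf8, adjacent to Tnfrsf1b and high in cKO 4 alone, and Tnfrsf1a, which stood lower in cKO at 72 h. Sequences are RefSeq promoters of build GRCm38.p6, from 250 bases before to 50 bases after an annotated start, and the 8 receptors had 10 of them. Tnfrsf9 is shown at the downstream of its annotated starts (chr4:150927749-150928048, plus strand), Tnfrsf4 at chr4:156013445-156013744 (plus strand), Tnfrsf8 at chr4:145315115-145315414 (minus strand), Tnfrsf1b at chr4:145246821-145247120 (minus strand) and Tnfrsf1a at chr6:125349473-125349772 (plus strand). Capitals mark matches, on either strand, to a strict NF-kappaB pattern (GGG, any 2 bases, TTTCC) or the AP-1 letters TGANTCA.
Tnfrsf9: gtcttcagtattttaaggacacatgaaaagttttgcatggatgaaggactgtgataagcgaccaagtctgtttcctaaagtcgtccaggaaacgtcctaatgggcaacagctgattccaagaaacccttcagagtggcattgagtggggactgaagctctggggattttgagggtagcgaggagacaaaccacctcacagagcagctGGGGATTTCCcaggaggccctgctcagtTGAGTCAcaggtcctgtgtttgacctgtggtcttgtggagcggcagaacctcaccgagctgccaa
Tnfrsf4: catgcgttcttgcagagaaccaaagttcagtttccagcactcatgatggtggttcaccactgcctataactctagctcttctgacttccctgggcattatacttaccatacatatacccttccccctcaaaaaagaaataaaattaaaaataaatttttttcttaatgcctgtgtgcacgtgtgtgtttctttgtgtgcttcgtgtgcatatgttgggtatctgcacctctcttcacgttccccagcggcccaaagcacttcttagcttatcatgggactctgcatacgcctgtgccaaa
Tnfrsf8: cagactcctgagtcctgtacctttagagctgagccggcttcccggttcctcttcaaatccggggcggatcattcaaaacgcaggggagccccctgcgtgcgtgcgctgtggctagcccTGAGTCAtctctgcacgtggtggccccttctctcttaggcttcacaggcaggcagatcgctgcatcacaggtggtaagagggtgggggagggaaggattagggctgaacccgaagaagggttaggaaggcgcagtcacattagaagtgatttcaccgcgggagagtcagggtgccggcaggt
Tnfrsf1b: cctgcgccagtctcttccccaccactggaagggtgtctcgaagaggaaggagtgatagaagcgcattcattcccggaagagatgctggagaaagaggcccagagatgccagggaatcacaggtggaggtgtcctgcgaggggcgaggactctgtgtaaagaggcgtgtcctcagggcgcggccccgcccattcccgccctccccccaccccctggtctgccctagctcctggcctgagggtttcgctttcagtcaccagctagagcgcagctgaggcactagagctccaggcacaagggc
Tnfrsf1a: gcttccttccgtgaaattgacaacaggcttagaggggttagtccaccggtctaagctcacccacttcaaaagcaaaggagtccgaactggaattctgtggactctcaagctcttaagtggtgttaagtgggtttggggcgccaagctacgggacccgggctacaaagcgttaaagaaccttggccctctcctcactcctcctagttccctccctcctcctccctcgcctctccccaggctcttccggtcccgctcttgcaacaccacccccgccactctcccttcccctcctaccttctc

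The AP-1 letters were in 2 of the 10 receptor promoters, those of Tnfrsf9 and Tnfrsf8, against 7.81% of 32851 mouse promoters of the same length. The strict NF-kappaB pattern was in 2 of the 10, Tnfrsf9 and the upstream start of Tnfrsf25, against 1.63% of all promoters. At the downstream start of Tnfrsf9 the NF-kappaB match began 43 bases before the start and the AP-1 match 15 bases before it, without overlap. The upstream start of Tnfrsf9, which is not printed, held none of the 3 patterns searched, and neither did the Tnfrsf4 promoter. A looser NF-kappaB pattern (GGG, any 5 bases, CC) was in 7 of the 10 promoters and in 50.8% of all, and the printed sequences do not mark it. These letters were settled after the receptor promoters had been read, and a match describes the sequence only.

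OX40 and 4-1BB transcripts were the most abundant of the family, and CD30 and TNFR1 the least. Averaged over the 6 libraries, which spans both tables, the order was Tnfrsf4 (578 FPKM), Tnfrsf9 (400), Tnfrsf18 (213), Tnfrsf1b (155), Cd27 (140), Tnfrsf25 (66.1), Tnfrsf1a (28.1) and Tnfrsf8 (17.8). Tnfrsf4 ranged from 462 to 693 FPKM, which placed it at percentile 98.6 to 99.0 of the 12394 genes tested (mean level 1 FPKM or more). Ranges of neighbours in this order overlapped down to Cd27 (98.9 to 191 FPKM). Tnfrsf25 (51.1 to 83.4 FPKM) lay below every Cd27 value and above every Tnfrsf1a value (20.5 to 39.5 FPKM), while Tnfrsf8 spanned 5.62 to 62.4 FPKM.

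**Figure D1:**
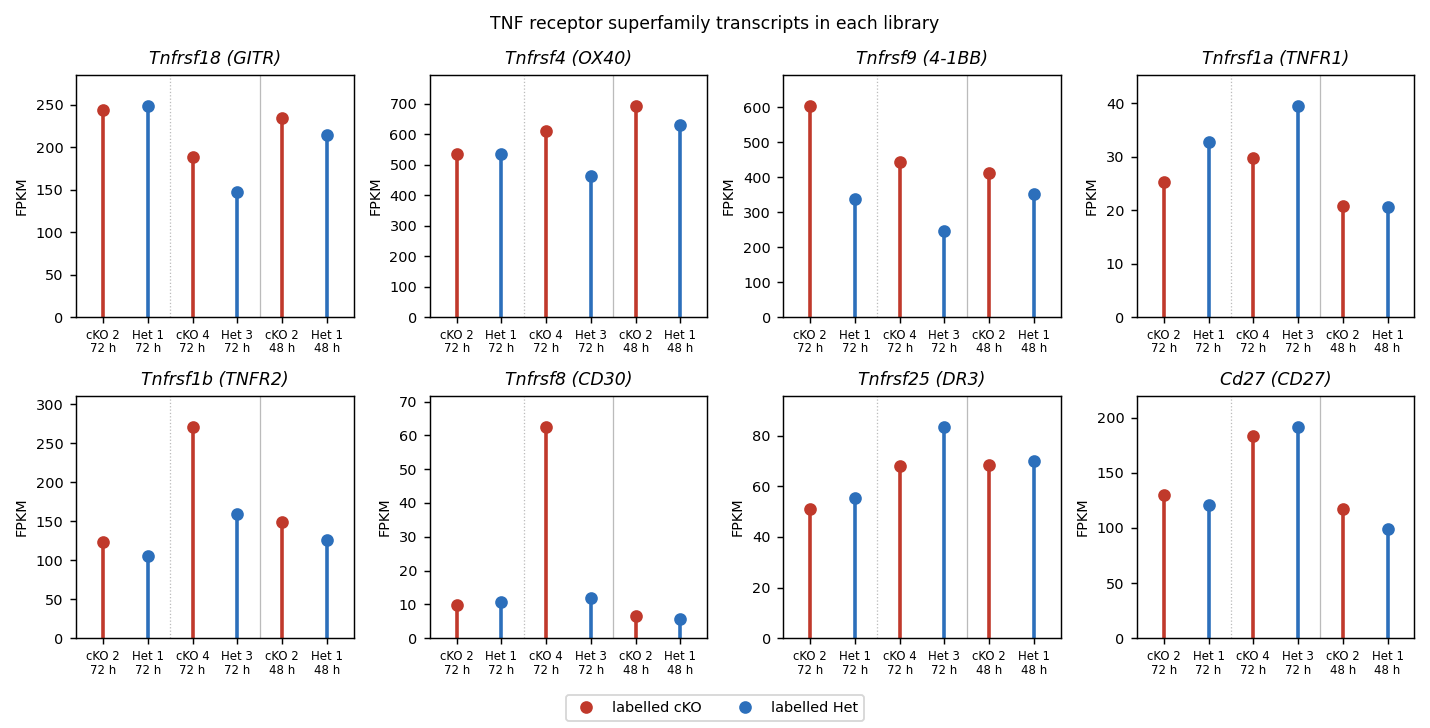
FPKM of each of the 8 receptors (vertical axis, from 0) in each of the 6 libraries (horizontal axis), 1 point per library, with red for libraries labelled cKO and blue for libraries labelled Het. Tnfrsf9 is higher in cKO than in Het in each pair, at 604 against 338 and 445 against 247 FPKM at 72 h, and Tnfrsf8 stands at 62.4 FPKM in cKO 4 against at most 11.8 in the other 5 libraries.

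Of the 8 receptors, 4-1BB had the smallest p for genotype at 72 h. At 72 h, Tnfrsf9 (ENSMUSG00000028965) was 604 FPKM in cKO 2 against 338 in Het 1, and 445 FPKM in cKO 4 against 247 in Het 3. At 48 h it was 413 FPKM in cKO 2 against 353 in Het 1. The cKO value was higher in all 3 pairs, and at 72 h the groups did not overlap, with both cKO libraries above both Het libraries. The ratio was 1.78 in one 72 h pair and 1.80 in the other, against 1.17 at 48 h (95% counting interval 1.14 to 1.20). On the log2(FPKM + 1) scale the 72 h difference was 0.84 ± 0.12 (SE, 2 libraries per genotype), with an unadjusted p of 0.00243 and a limma adjusted p of 0.123 over all genes. It did not pass the threshold of 0.05, which no gene passed in this comparison. The summed neutrophil markers were higher in cKO in all 3 pairs too, but in the pair of 4 and 3 only through Ltf. There Ltf was 75.3 FPKM in cKO 4 against 21.4 in Het 3, while the other 5 markers were at 0.168 FPKM or less. The summed CD8 T and NK cell markers, whose cells can also express 4-1BB, were higher in cKO in both 72 h pairs. In the pair of 4 and 3 that sum was mostly Nkg7 (89.1 FPKM in cKO 4 against 6.48 in Het 3) and Gzma (22.8 in cKO 4 against 1.92 in Het 3), while Cd8b1 was 4.47 in cKO 4 against 4.69 in Het 3. The part of either cell type in the result was not tested. Camta1, an overlapping gene on the opposite strand, stood between 3.57 and 5.27 FPKM, far below Tnfrsf9.

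The other costimulatory receptors differed less, or in 1 pair alone. OX40 (Tnfrsf4, ENSMUSG00000029075) was 537 FPKM in cKO 2 against 535 in Het 1 and 611 in cKO 4 against 462 in Het 3 at 72 h, and 693 in cKO 2 against 631 in Het 1 at 48 h. The cKO value was again the higher in all 3 pairs, but at 72 h the pair of 2 and 1 differed by a ratio of 1.002 (95% counting interval 0.975 to 1.03). The 72 h log2 difference was 0.20 ± 0.16 (SE, limma adjusted p = 0.533). GITR (Tnfrsf18, ENSMUSG00000041954) was 243 FPKM in cKO 2 against 248 in Het 1 and 188 in cKO 4 against 147 in Het 3, and at 48 h 234 in cKO 2 against 214 in Het 1. Its direction thus differed between the 72 h pairs, and the groups overlapped. In the pair of 2 and 1 the Tnfrsf18 ratio was 0.981, with a 95% counting interval of 0.942 to 1.02. The antisense gene Gm16008, whose reads cannot be told from those of Tnfrsf18 without strand, ranged from 11.4 to 19.8 FPKM.

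CD30 rested on a single library. Tnfrsf8 (ENSMUSG00000028602) was 9.90 FPKM in cKO 2 against 10.7 in Het 1 and 62.4 in cKO 4 against 11.8 in Het 3 at 72 h, and 6.59 in cKO 2 against 5.62 in Het 1 at 48 h. The ratio was 5.30 in the pair of 4 and 3 (95% counting interval 4.93 to 5.70) and 0.922 in the pair of 2 and 1 (0.833 to 1.02), so the high value lies far outside counting error but has no second library beside it. The gene stood at percentile 82.5 of tested genes in cKO 4 and at percentile 28.7 to 42.0 in the other 5 libraries. The 72 h log2 difference was 1.10 ± 0.63 (SE, limma adjusted p = 0.423), and without either library of replicates 4 and 3 it was -0.11. CD27, a costimulatory receptor already present on resting T cells, was 129.8 FPKM in cKO 2 against 121 in Het 1 and 183 in cKO 4 against 191 in Het 3 at 72 h, and 117 in cKO 2 against 98.9 in Het 1 at 48 h. Cd27 (ENSMUSG00000030336) thus overlapped between genotypes, with a 72 h log2 difference of 0.02 ± 0.13 (SE, limma adjusted p = 0.937) that turned to -0.043 under median centring. Vamp1, which overlaps Cd27 on the opposite strand, stood between 17.5 and 40.8 FPKM.

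The TNF receptors went in opposite directions. TNFR2 (Tnfrsf1b, ENSMUSG00000028599), the inducible receptor of lymphocytes, was 123 FPKM in cKO 2 against 105 in Het 1 and 270.5 in cKO 4 against 159 in Het 3 at 72 h, and 148 in cKO 2 against 126 in Het 1 at 48 h. It was higher in cKO in all 3 pairs, with ratios of 1.18 and 1.70 at 72 h and 1.18 at 48 h, although the 72 h groups overlapped, and both genotypes stood higher in the table of replicates 3 and 4. The 72 h log2 difference was 0.50 ± 0.18 (SE, limma adjusted p = 0.291). TNFR1 (Tnfrsf1a, ENSMUSG00000030341), the death domain receptor, was 25.4 FPKM in cKO 2 against 32.7 in Het 1 and 29.7 in cKO 4 against 39.5 in Het 3 at 72 h, and 20.9 in cKO 2 against 20.5 in Het 1 at 48 h. Both 72 h cKO libraries lay below both Het libraries, while the 48 h ratio of 1.02 had a 95% counting interval of 0.889 to 1.16. The 72 h log2 difference was -0.37 ± 0.12 (SE), with an unadjusted p of 0.0410 and a limma adjusted p of 0.272. Myeloid cells express TNFR2, and the sums of their markers stood higher in cKO, though not every marker did. Other myeloid markers summed to 40.3 FPKM in cKO 2 against 2.50 in Het 1 at 72 h. In the pair of 4 and 3 they summed to 2.23 in cKO 4 against 0.474 in Het 3, mostly Fcer1g (1.91 in cKO 4 against 0.144 in Het 3). In that pair Lyz2 was 0 in both libraries and Itgam was 0.214 in cKO 4 against 0.304 in Het 3. Csf1r and Cd14 were at most 0.0773 there. The neutrophil markers summed to 75.3 FPKM in cKO 4, all of it Ltf, against 21.5 in Het 3. The part of these cells in the result was not tested.

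DR3, the other death domain receptor, was the member that stood lower in cKO in all 3 pairs. Tnfrsf25 (ENSMUSG00000024793) was 51.1 FPKM in cKO 2 against 55.4 in Het 1 and 67.9 in cKO 4 against 83.4 in Het 3 at 72 h, and 68.5 in cKO 2 against 70.2 in Het 1 at 48 h. The differences were small, with ratios of 0.923 and 0.815 at 72 h and 0.975 at 48 h, and the 72 h groups overlapped. The 72 h log2 difference was -0.20 ± 0.13 (SE, limma adjusted p = 0.463).

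Across the family, 3 of 8 receptors (Tnfrsf4, Tnfrsf9 and Tnfrsf1b) were higher in cKO in all 3 pairs and 1 of 8 (Tnfrsf25) was lower in all 3. Of all 12394 genes tested, 23.5% were higher in all 3 pairs and 14.7% lower. The 72 h groups did not overlap, with cKO higher, for Tnfrsf4 and Tnfrsf9, against 25% of all genes. They did not overlap, with cKO lower, for Tnfrsf1a, against 13.7%. With 8 receptors, nothing is read from these shares about the family. After TPM rescaling 2 receptors were lower in all 3 pairs, Tnfrsf1a joining Tnfrsf25. In the 72 h pair of 2 and 1, the Tnfrsf4 log2 difference (0.0032) lay below the median of genes averaging 5 FPKM or more (0.062). Median centring, which lowers that median to 0.0040, thus turns Tnfrsf4 lower in that pair. Without the libraries labelled cKO of replicate 2, which hold neutrophil transcripts, 1 pair was left, in which 5 receptors were higher in cKO and 3 lower. Direction in 1 pair is another measure than direction over 3 pairs, and the share of all genes higher in that pair was not counted. The median log2 ratio there was 0.064 over genes averaging 5 FPKM or more. No receptor passed limma's adjusted p in the 72 h fit, where 0% of 12488 genes passed. At an unadjusted p under 0.05, 2 of 8 receptors (Tnfrsf9 higher, Tnfrsf1a lower) stood against 17.3% of all genes, 10.3% higher and 6.99% lower. The median log2 difference at 72 h was 0.18 over the receptors and 0.08 over all genes.

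**Figure D2:**
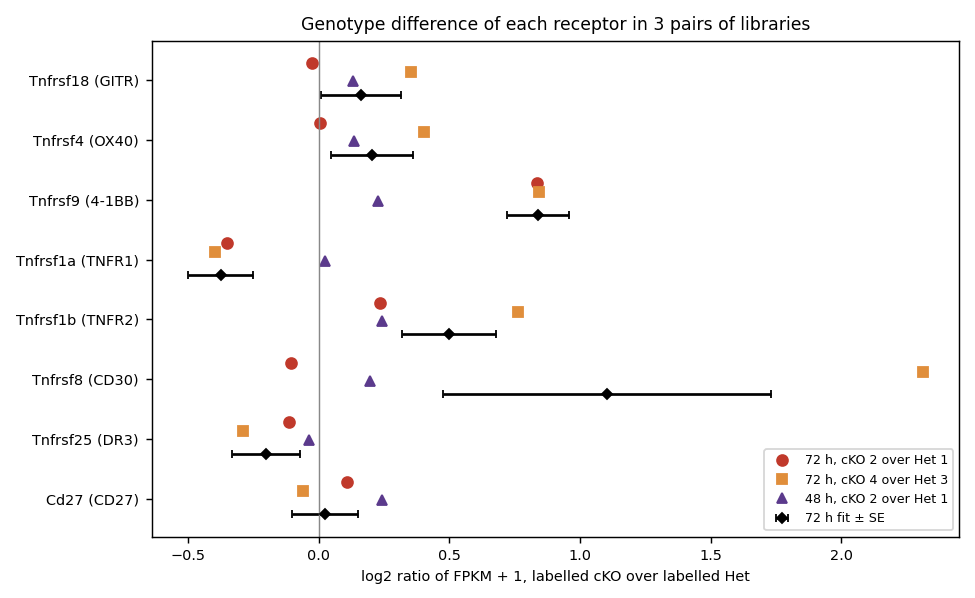
log2 ratio of FPKM + 1 of libraries labelled cKO over libraries labelled Het (horizontal axis) for each receptor (vertical axis), with 1 coloured symbol for each of 3 within-table pairs and a black diamond for the 72 h limma estimate with bars of 1 SE. Tnfrsf9 lies at 0.83 and 0.84 in the 72 h pairs, Tnfrsf1a at -0.35 and -0.40, and Tnfrsf8 at -0.11 and 2.31.

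With the 48 h libraries added (3 of each genotype), Tnfrsf9 and Tnfrsf1b were the receptors with an unadjusted p under 0.05. Tnfrsf9 had a log2 difference of 0.63 ± 0.15 (SE, limma adjusted p = 0.343) and Tnfrsf1b one of 0.41 ± 0.14 (SE, limma adjusted p = 0.352). Tnfrsf8 stood at 0.80 ± 0.48 (SE), Tnfrsf4 at 0.18, Tnfrsf18 at 0.15, Cd27 at 0.10, Tnfrsf25 at -0.15 and Tnfrsf1a at -0.24. None passed the adjusted threshold, as 0% of 12394 genes did, while 13.3% had an unadjusted p under 0.05, 8.04% higher and 5.28% lower. At 48 h alone no receptor differed by 1.5-fold, where 5.01% of genes were at least 1.5-fold higher in cKO and 4.09% at least 1.5-fold lower. At 72 h, Tnfrsf9 was past 1.5-fold in both pairs and Tnfrsf1b and Tnfrsf8 in the pair of 4 and 3, where 16.3% (pair of 2 and 1) and 13.2% (pair of 4 and 3) of genes were at least 1.5-fold higher. None was 1.5-fold lower, where 12.5% (pair of 2 and 1) and 6.2% (pair of 4 and 3) of genes were.

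Whether the genotype difference was larger at 72 h than at 48 h was tested with an interaction term. For Tnfrsf9 the difference of differences was 0.61 ± 0.20 on the log2 scale (SE), with an unadjusted p of 0.0428 and a limma adjusted p of 0.856. The other 7 receptors ran from -0.40 (Tnfrsf1a) to 0.91 (Tnfrsf8), with limma adjusted p from 0.856 to 0.981. The share of genes past the adjusted threshold was 0%, and 5.71% had an unadjusted p under 0.05, 3.43% with a positive and 2.28% with a negative difference.

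Receptor make-up also differed between libraries. The FPKM of the 8 receptors summed to 1723 in cKO 2 against 1446 in Het 1 and 1858 in cKO 4 against 1341 in Het 3 at 72 h, and to 1702 in cKO 2 against 1519 in Het 1 at 48 h. The sum was thus higher in cKO in each pair. 4-1BB made up 35.0% of it in cKO 2 against 23.4% in Het 1 and 23.9% in cKO 4 against 18.4% in Het 3 at 72 h, and 24.3% in cKO 2 against 23.2% in Het 1 at 48 h. In cKO 2 at 72 h it exceeded OX40, which had 31.1% there and was the largest component in the other 5 libraries (32.9% to 41.6%). TNFR1 made up 1.47% in cKO 2 against 2.26% in Het 1 and 1.60% in cKO 4 against 2.94% in Het 3 at 72 h. Shares of 1 sum move together, so a larger 4-1BB share lowers the others.

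**Figure D3:**
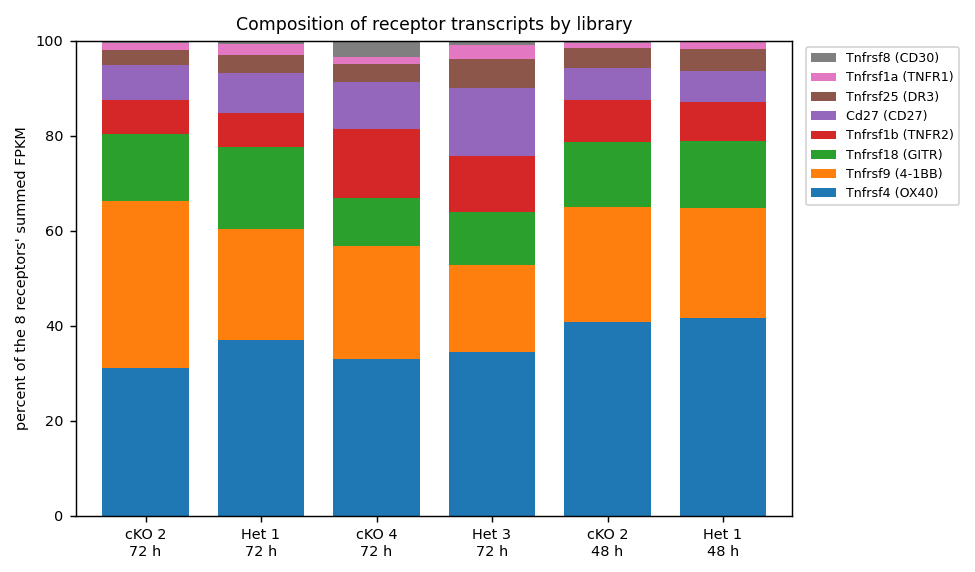
Percent of the summed FPKM of the 8 receptors (vertical axis) taken by each receptor in each library (horizontal axis), as stacked bars. The 4-1BB segment is 35.0% in cKO 2 against 23.4% in Het 1 at 72 h, and the OX40 segment is the largest in each library other than cKO 2 at 72 h.

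Between 72 h and 48 h, TNFR1 and CD30 transcripts stood higher at the later time and OX40, TNFR2 and DR3 lower, in both genotypes. This comparison lies within 1 table, with 1 library of each genotype at each time. Tnfrsf1a was 25.4 FPKM at 72 h against 20.9 at 48 h in cKO 2, and 32.7 FPKM at 72 h against 20.5 at 48 h in Het 1. Tnfrsf25 was 51.1 FPKM at 72 h against 68.5 at 48 h in cKO 2, and 55.4 at 72 h against 70.2 at 48 h in Het 1. These were the receptors with an unadjusted p under 0.05 for time, at log2 differences of 0.46 ± 0.16 and -0.38 ± 0.13 (SE, limma adjusted p of 0.427 and 0.421). Tnfrsf8 was 9.90 FPKM at 72 h against 6.59 at 48 h in cKO 2, and 10.7 at 72 h against 5.62 at 48 h in Het 1. Its log2 difference was 0.68 ± 0.59 in the additive fit (SE, limma adjusted p = 0.673). With the table term that difference rests on the table of replicates 1 and 2, while the SE also draws on cKO 4. Tnfrsf4 was 537 FPKM at 72 h against 693 at 48 h in cKO 2, and 535 at 72 h against 631 at 48 h in Het 1 (log2 difference -0.30 ± 0.14, SE, limma adjusted p = 0.493).

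4-1BB was the receptor whose direction over time differed between genotypes. Tnfrsf9 was 604 FPKM at 72 h against 413 at 48 h in cKO 2, a ratio of 1.46, and 338 FPKM at 72 h against 353 at 48 h in Het 1, a ratio of 0.959. This is the difference that the interaction term addressed and that did not pass after adjustment. Of the others, Tnfrsf18 and Cd27 were higher at 72 h in both genotypes and Tnfrsf1b lower. Higher values at 72 h in both genotypes were found for 4 of 8 receptors against 28.7% of all genes, and lower values for 3 of 8 against 26.6%. No receptor passed the adjusted threshold for time, which 0.0242% of 12394 genes passed, and 2 of 8 had an unadjusted p under 0.05 against 11.1% of genes, 6.45% higher and 4.63% lower at 72 h.

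**Figure D4:**
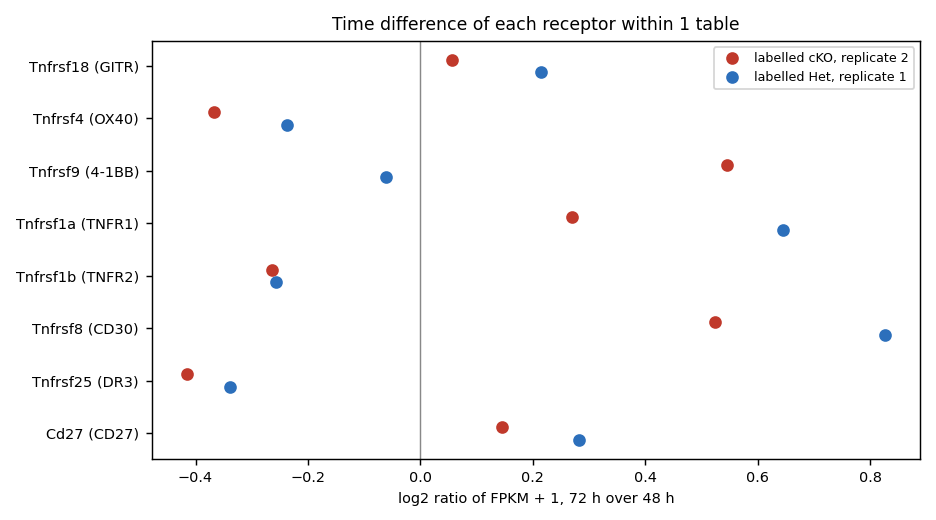
log2 ratio of FPKM + 1 at 72 h over 48 h (horizontal axis) for each receptor (vertical axis), red for the pair of libraries labelled cKO 2 and blue for the pair labelled Het 1. Tnfrsf9 lies at 0.55 in cKO and -0.06 in Het, and the other 7 receptors lie on the same side of 0 in both.

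Transcripts of some ligands were present in these cells. Of 9 ligand genes listed, 6 reached a mean of 1 FPKM, and the ligands of GITR (Tnfsf18), DR3 (Tnfsf15) and CD27 (Cd70) did not, with at most 0.746 FPKM in any library. The OX40 ligand gene Tnfsf4 was 17.6 FPKM in cKO 2 against 1.66 in Het 1 and 10.0 in cKO 4 against 1.5 in Het 3 at 72 h, and 6.87 in cKO 2 against 3.02 in Het 1 at 48 h. The cKO libraries were above both Het libraries at 72 h, and the log2 difference was 2.48 ± 0.23 (SE, limma adjusted p = 0.106). The CD30 ligand gene Tnfsf8 was 42.6 FPKM in cKO 2 against 9.78 in Het 1 and 35.2 in cKO 4 against 12.8 in Het 3 at 72 h, and 28.9 in cKO 2 against 22.1 in Het 1 at 48 h. Its 72 h log2 difference was 1.70 ± 0.20 (SE, limma adjusted p = 0.121). Lymphotoxin alpha (Lta), which binds both TNF receptors, stood at 0.70 ± 0.19 (SE, limma adjusted p = 0.225).

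The remaining ligands differed less. The 4-1BB ligand gene Tnfsf9 was 6.67 FPKM in cKO 2 against 11.3 in Het 1 and 10.4 in cKO 4 against 11.9 in Het 3 at 72 h, with a log2 difference of -0.43 ± 0.19 (SE, limma adjusted p = 0.340). Tnf stood at -0.14 and Ltb, which pairs with lymphotoxin alpha, at -0.04. None of the 6 passed the adjusted threshold, and 3 had an unadjusted p under 0.05, all higher in cKO, where 10.3% of all genes were. Activated B and dendritic cells also make Tnfsf4. B cell markers summed to 83.5 FPKM in cKO 2 against 12.4 in Het 1 and to 8.18 in cKO 4 against 9.11 in Het 3, and the part of such cells in the result was not tested.

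Among 20 other receptors of the family, 11 reached a mean of 1 FPKM, and 5 of these stood higher and 1 lower in cKO at 72 h at an unadjusted p under 0.05, against 10.3% higher and 6.99% lower of all genes, with 0 past the adjusted threshold. The death receptor gene Fas was 42.5 FPKM in cKO 2 against 21.5 in Het 1 and 32.3 in cKO 4 against 20.0 in Het 3, a log2 difference of 0.81 ± 0.14 (SE, limma adjusted p = 0.156). Tnfrsf13c (the BAFF receptor) stood at 1.67 ± 0.30 and Cd40 at 1.24 ± 0.33 (SE), both receptors of B cells and both highest in cKO 2 at 72 h, the library with the highest B cell markers. In the pair of 4 and 3, where B cell markers summed to 8.18 FPKM in cKO 4 against 9.11 in Het 3, Tnfrsf13c was 3.19 in cKO 4 against 0.803 in Het 3 and Cd40 was 1.90 in cKO 4 against 0.758 in Het 3. Tnfrsf10b, the mouse TRAIL receptor, stood at 0.92 ± 0.24, Tnfrsf14 (HVEM) at 0.51 ± 0.12 and Tnfrsf26 at -0.62 ± 0.15 (SE). The median of the 11 was 0.12.

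Adaptors act just below the receptors. Of 25 adaptor genes, 17 were higher and 8 lower in cKO at 72 h, with a median log2 difference of 0.16 against 0.08 over all genes. The median of all genes was thus above 0 too, and the share of all genes higher was not counted, so nothing is read from this count. At an unadjusted p under 0.05, 4 were higher and 1 lower, against 10.3% and 6.99% of all genes, and 0 passed the adjusted threshold. Tank, which binds TRAF proteins, was 53.2 FPKM in cKO 2 against 28.05 in Het 1 and 62.8 in cKO 4 against 34.0 in Het 3, a log2 difference of 0.88 ± 0.12 (SE, limma adjusted p = 0.122). The kinase gene Map3k7 (TAK1) stood at 0.53, Birc2 (cIAP1) at 0.40, the deubiquitinase gene Cyld at 0.43, Tab2 at -0.41 and Casp8 at -0.35. Traf1 stood at 0.20, Traf2 at 0.15 and Tradd, the adaptor of TNFR1 and DR3, at -0.38.

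Most NF-kappaB genes stood higher in cKO. Of 13 measured, 12 were higher at 72 h, with a median log2 difference of 0.67 against 0.08 over all genes, 7 had an unadjusted p under 0.05, all higher in cKO, against 10.3% of all genes, and 0 passed the adjusted threshold. In all 3 pairs, 11 of 13 were higher in cKO, against 23.5% of all genes. The list was chosen with earlier results of these data known, so these counts describe it and do not test it. The share of all genes higher in cKO in the 72 h fit, whatever the p, was not counted. Bcl2l1, the survival gene of Bcl-xL, was 137 FPKM in cKO 2 against 35.5 in Het 1 and 70.9 in cKO 4 against 26.4 in Het 3, a log2 difference of 1.66 ± 0.18 (SE, limma adjusted p = 0.111). Nfkb2 was 83.5 FPKM in cKO 2 against 24.1 in Het 1 and 49.4 in cKO 4 against 28.4 in Het 3 (1.26 ± 0.28, SE, limma adjusted p = 0.187). Rel stood at 1.03, Relb at 1.02, the inhibitor gene Tnfaip3 (A20) at 1.18 and Icam1 at 0.74. Nfkb1 stood at 0.09, Rela at 0.13 and Bcl3 at -0.10. Some differences were larger in the pair of 2 and 1 than in that of 4 and 3, as for Tnfaip3 (1.81 against 0.55) and Nfkb2 (1.75 against 0.78). At 72 h, cKO 2 also had the highest sums of neutrophil, other myeloid and B cell markers. The part of such cells in the result was not tested. Over time the group ran the other way, with 11 of 13 lower at 72 h than at 48 h. The median was -0.49, against 0.0018 over all genes, and the share of all genes lower at 72 h in that fit was not counted. At an unadjusted p under 0.05 in limma, 7 were lower and 0 higher at 72 h, against 4.63% and 6.45% of all genes, and 0 passed the adjusted threshold.

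**Figure D5:**
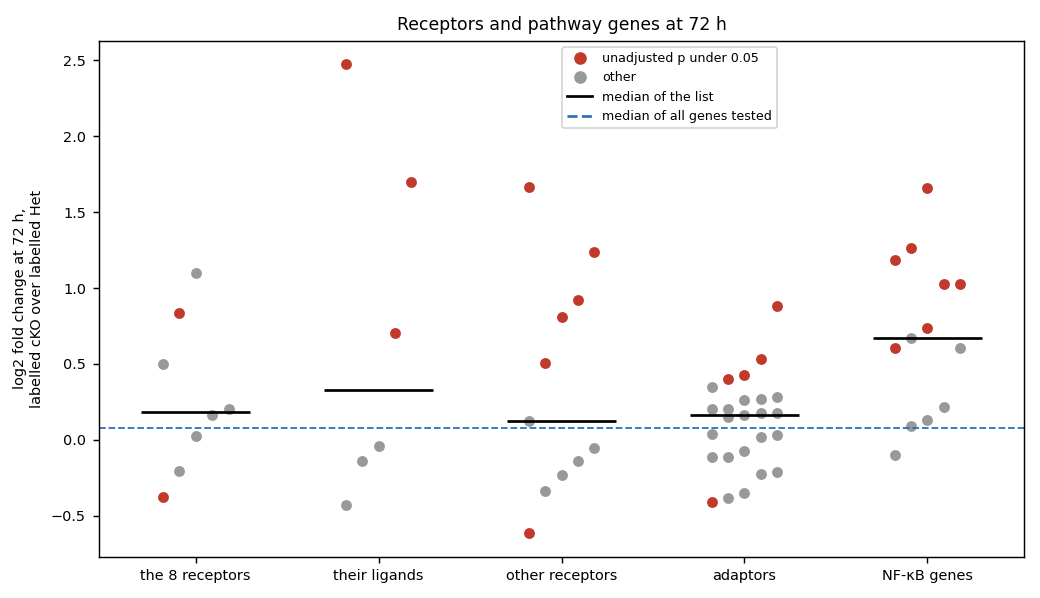
log2 fold change at 72 h of libraries labelled cKO over libraries labelled Het (vertical axis) for each tested gene of 5 lists (horizontal axis), with a black line at each list's median, a dashed line at the median of all genes tested (0.08) and red points for an unadjusted p under 0.05. The list medians are 0.18 for the 8 receptors and 0.67 for the NF-kappaB genes.

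Likeness between patterns was measured by Pearson's r of log2(FPKM + 1), centred within each table, over the 6 libraries. Centring leaves few free points and every library is shared, so these r values are descriptions. The protein-coding genes most like Tnfrsf9, among 8651 averaging 5 FPKM or more, were Tiprl (r = 0.9997) and Izumo1r (r = 0.999). Izumo1r was 617 FPKM in cKO 2 against 391.5 in Het 1 and 639 in cKO 4 against 423 in Het 3 at 72 h. Tiprl changed little, at 31.7 FPKM in cKO 2 against 29.6 in Het 1 and 30.3 in cKO 4 against 28.2 in Het 3. A high r thus describes the shape of a pattern and not the size of the change. An r of at least 0.9 with Tnfrsf9 was found for 389 genes, 4.50% of those compared. Tnfrsf1a was most like Rasgrp1 and the glucose transporter gene Slc2a3, Tnfrsf4 most like Phax and Arl5c, and Tnfrsf1b most like Zswim7 and Dgcr6. Tnfrsf18 was most like Stx8 and Htatip2, Tnfrsf8 most like Gskip and Sdf4, Tnfrsf25 most like Cbx2, and Cd27 most like Stx7 and Cd55. Within the family, r was 0.97 between Tnfrsf18 and Tnfrsf8, 0.91 between Tnfrsf4 and Tnfrsf1b and 0.63 between the adjacent Tnfrsf1b and Tnfrsf8, while Tnfrsf1a was at -0.86 with Tnfrsf4 and -0.81 with Tnfrsf1b.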

How the data were processed

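The authors deposited FPKM values in 2 tables of 47427 and 47347 rows. Of 47347 shared rows, 47069 had an Ensembl ID, 46488 of them with a symbol in GENCODE M21. The submitters' processing notes name Bowtie2 2.2.3, TopHat2 2.0.12, HTSeq 0.6.1 and build mm9, with roles, annotation and strand not given in the sources used here. Libraries were made with a low-input SMART-Seq kit, per the labels' protocols. Promoters come from GRCm38.p6, and no coordinates of the tables were used.

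A gene was tested where its average reached 1 FPKM in the libraries fitted. log2(FPKM + 1), which understates changes of low genes, was fitted with limma 3.58.1 (R 4.3.3, variance trend) and Benjamini-Hochberg adjustment over all genes, with 0.05 as threshold. Residual degrees of freedom were 1 for the 72 h fit of genotype and table, 2 for the additive fit of genotype, time and table, and 1 for the interaction fit. The table term keeps every contrast within a table. A single library per genotype at 48 h allowed no test. Depth was estimated from low values, 85.9% to 86.8% of which came out whole (tolerance 0.02 fragments) with mean transcript length as gene length, against 2.96% to 3.33% with lengths scrambled. Counting intervals are exact, cover counting error alone, and rest on that estimate. The fits were tested on simulated data.

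The receptors and gene lists were chosen with earlier results of these data known. Genes were named as follows: the 8 receptors, up to 6 genes of each list with the smallest p, and 2 genes most like each receptor, 1 of which is not reported here. Traf1, Traf2, Tradd, Nfkb1, Rela and Bcl3 were named after their values were seen. Replicates 1 and 2 recur between times, in 1 genotype each. Alternatives changed the pseudocount, filter, scaling, table term, variance trend and libraries. Those for the direction over pairs were chosen after seeing the data. Python 3.11.15, pandas 2.3.3, scipy 1.17.1 and matplotlib 3.10.9 were used.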

Additional observations from a re-analysis of the deposited data

Results flagged for a closer look

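The genotype difference of Tnfrsf1a had opposite signs at 72 h and 48 h. Both 72 h pairs were lower in the library labelled cKO (log2 -0.35 and -0.40), while the 48 h pair was 0.02 higher. The difference of differences was -0.40 on the log2 scale (limma adjusted p = 0.856), so it did not pass, and the 48 h ratio of 1.02 had a counting interval of 0.889 to 1.16.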

How the results depend on the processing

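Under each alternative that gave a test, 0 receptors passed the adjusted threshold in any of the 4 comparisons. Without a filter on low values, 6 genes were higher and 2 lower in the libraries labelled cKO at 72 h, where the main count was 0, and none was a receptor. For genotype over both times, leaving out each library in turn gave 0 to 7 genes. The 7 came without Het 3 or without cKO 4 at 72 h. For time, 3 genes passed, against 1 with a pseudocount of 5 and 0 without the filter or without the table term, and 0 to 4 with a library left out (0 without either 48 h library, 1 without Het 1 at 72 h, 2 without cKO 4 or Het 3, 4 without cKO 2 at 72 h). With the replicate number as a block (4 libraries of replicates 1 and 2), 2 genes passed for time, and Tnfrsf9 kept a log2 difference of 0.24 (limma adjusted p = 0.804). The same numbers recur in 1 genotype each and 48 h groups hold 1 library, so whether they pair could not be checked, and genotypes share no number.

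Directions of receptors turned for Cd27 at 72 h under median centring (-0.043), for the Tnfrsf18 interaction under median centring (-0.025), and for time without the table term for Tnfrsf18 (-0.14) and Tnfrsf1b (0.17). With a library left out, they also turned for time for Tnfrsf9 (range -0.063 to 0.55) and Tnfrsf8 (-0.0052 to 1.36). At 72 h, leaving out a library turned Tnfrsf18 (-0.028 to 0.35), Tnfrsf8 (-0.11 to 2.31) and Cd27 (-0.061 to 0.11). The interaction turned likewise for Tnfrsf4 (-0.13 to 0.27), Tnfrsf18 (-0.16 to 0.22), Tnfrsf1b (-0.0079 to 0.52) and Tnfrsf8 (-0.30 to 2.11). The cause was not tested. None of these values passed a threshold. Tnfrsf9 at 72 h ran from 0.77 to 0.85 over all alternatives, with limma adjusted p from 0.107 to 0.515. Receptors lower in all 3 pairs numbered 2 after TPM rescaling against 1. Median centring turns Tnfrsf4 lower in the 72 h pair of 2 and 1, which leaves Tnfrsf9 and Tnfrsf1b higher in all 3 pairs. With 1 pair left (no library of cKO 2), 5 were higher and 3 lower, a count that cannot be set against that over 3 pairs. At 72 h, leaving out a library leaves 1 pair in a table and no residual degree of freedom, so these are values without a test, and the interaction could not be estimated without a 48 h library. With 2 libraries per genotype, modest differences cannot be told from the spread, and a missed threshold does not show equal levels.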
